A study of Mus musculus with 8 samples.

Results

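The genes described here are 9 members of the poly(ADP-ribose) polymerase family, Parp1, Parp2, Parp3, Parp8, Parp9, Parp10, Parp11, Parp12 and Parp14, together with Dtx3l, which encodes a ubiquitin ligase that works as the partner of PARP9. They were chosen by symbol and are 10 of the 30406 genes shared by all libraries. By textbook role, Parp9, Dtx3l, Parp14, Parp10, Parp11 and Parp12 were grouped as the 6 interferon-type members and Parp1, Parp2 and Parp3 as the 3 DNA repair members. Parp8 was placed in neither group.

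PARP enzymes transfer ADP-ribose from NAD to proteins. PARP1 and PARP2 bind broken DNA strands and build ADP-ribose chains there, and strong activation of PARP1 is known to use up NAD in islet cells exposed to nitric oxide. Most other members add a single ADP-ribose or have little activity, and several are made in response to interferon and act against viruses.

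Islets of male C57BL6/J mice (C57BL/6 in the labels), aged 12 to 16 weeks, were left untreated, or were exposed to IL-1β (10 U/mL) together with IFN-γ (150 U/mL), called cytokines below, over 18 h, with both cytokines and 2 mM NMMA, an inhibitor of nitric oxide synthases, or with NMMA alone. Each of the 4 conditions had 2 libraries. A replicate was a pool of islets from 10 mice that was divided over the 4 conditions, so the libraries of a replicate are paired. The main fits within a class left this pairing out, and their p-values include the spread between 2 pools. Fits with the replicate or the library as a block set differences between pools aside. Intact islets were treated and dispersed afterwards, so all cell types of a library were treated together.

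Of 17426 barcodes, 10876 were kept, with a median of 3983 to 24136 UMIs per cell among the libraries. Untreated replicate 2 had the lowest of these medians and 577 of the 680 barcodes named ductal. Of the 577, 575 lay in a cluster of few UMIs with Ins2 as its highest hormone gene. Its marker score was 1.08 for ductal cells and 0.991 for β-cells, so the name is uncertain. The kept barcodes held 6349 β-cells, 539 α-cells, 326 δ-cells, 324 macrophages, 282 endothelial cells and 198 mesenchymal cells. Pairs of libraries shared 0 to 2 barcodes. Because sums of fewer than 10 cells were left out, α-cells with cytokines plus NMMA, δ-cells with cytokines and mesenchymal cells with cytokines each rest on 1 library. Of the kept barcodes, 1942 stayed unnamed, 596 of them in cytokines plus NMMA replicate 2, and 1536 lay in clusters of few UMIs. A cluster of 116 cells led by Fgb, Gal and Hamp, with Gcg as its highest hormone gene, held 92 cells of that library and stayed unnamed because Ppy, and no α-cell marker, was among its 10 leading genes. That left 3 named α-cells there. Each class carried its own markers, except that the δ-cell marker Lepr had 0 UMIs in δ-cells. Levels are given as CPM, UMI counts scaled to the same total in every sum. Endothelial cells also carried 1435 to 4114 CPM of the mesenchymal marker list, and δ-cells 31220 to 128400 CPM of the PP-cell list against 33310 to 95970 of their own. In α-cells the PP-cell list stood at 28860 to 60450 CPM and the ductal list at 2300 to 10650 CPM, against 149900 to 215400 of their own. β-cell markers were found in every other class, at 0.558% to 18.3% of their level in the β-cells of the same library.

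Promoter sequences are shown for members that moved in opposite directions in β-cells. RefSeq windows on GRCm38.p6, from 250 bases before to 50 bases after a transcription start, were found for 7 of the 10 members (Parp1, Parp2, Parp3, Parp8, Parp11, Parp12 and Dtx3l). They were searched on both strands for the core of the interferon-stimulated response element (GAAA, any 2 bases, GAAA) and for the κB motif. Of 32851 windows of 300 bases, 3.44% held the first and 8.46% the second. Among the 8 windows of members, 1 of Parp11 held a match. Its response element match lay on the minus strand at bases -44 to -35 from the start. The other members' windows held neither motif, which says only that these letters are not in those bases. The stretches printed lie before the start and outside annotated exons, and capitals mark the match in Parp11.
Parp11, chr6:127446590-127446839, plus strand: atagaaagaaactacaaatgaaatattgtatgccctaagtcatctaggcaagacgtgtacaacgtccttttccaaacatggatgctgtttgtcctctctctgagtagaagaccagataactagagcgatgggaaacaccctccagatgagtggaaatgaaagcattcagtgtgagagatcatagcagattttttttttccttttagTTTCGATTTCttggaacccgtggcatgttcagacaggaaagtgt
Parp12, chr6:39118350-39118472, minus strand: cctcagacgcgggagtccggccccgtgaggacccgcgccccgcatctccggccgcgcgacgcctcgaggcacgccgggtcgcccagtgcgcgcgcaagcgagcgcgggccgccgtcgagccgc
Dtx3l, chr16:35939207-35939277, minus strand: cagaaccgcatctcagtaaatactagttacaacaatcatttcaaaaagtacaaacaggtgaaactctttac
Parp1, chr1:180568641-180568890, plus strand: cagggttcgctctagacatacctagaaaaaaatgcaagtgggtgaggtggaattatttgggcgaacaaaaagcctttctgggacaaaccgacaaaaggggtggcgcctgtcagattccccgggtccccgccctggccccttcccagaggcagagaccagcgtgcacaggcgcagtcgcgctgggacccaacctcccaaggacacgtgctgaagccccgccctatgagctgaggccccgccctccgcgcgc

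Dtx3l, Parp9 and Parp14 lie close together on mouse chromosome 16. In GENCODE M21 on GRCm38, Dtx3l spans 35926511 to 35939151 on the minus strand and Parp9 spans 35938470 to 35972605 on the plus strand, so the genes overlap head to head by 682 bases. Parp14 spans 35832874 to 35871544 on the minus strand, 54966 bases from Dtx3l. Parp11 (127446840 to 127494261, plus strand) and Parp12 (39086410 to 39118349, minus strand) lie far apart on chromosome 6. Parp10 (chromosome 15, 76231174 to 76243441, minus strand) overlaps Plec on its own strand, and Parp3 (chromosome 9, 106470322 to 106476949, minus strand) overlaps Rrp9 on the other strand. Reads in the overlaps of Parp9 with Dtx3l, Parp10 with Plec and Parp3 with Rrp9 could be split between genes, so the counts of these members are less certain. The same holds for Parp14 with Gm49730 and Parp11 with Gm43633, each on the member's own strand, for Parp1 with the microRNA gene Mir6904 on its own strand, and for Parp9 with Gm15564 on the other strand.

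In β-cells, all 6 interferon-type members and Parp3 rose with cytokines, and Parp1 fell. Parp2 and Parp8 did not pass the test. The response was broad, with 46.1% of 12778 genes called, against 8 of the 10 members. The median log2 change was 2.24 over the 6 interferon-type members and 0.0015 over all genes tested. Scaling by total UMIs moved the median of all genes by -0.22 on the log2 scale.

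**Figure D1:**
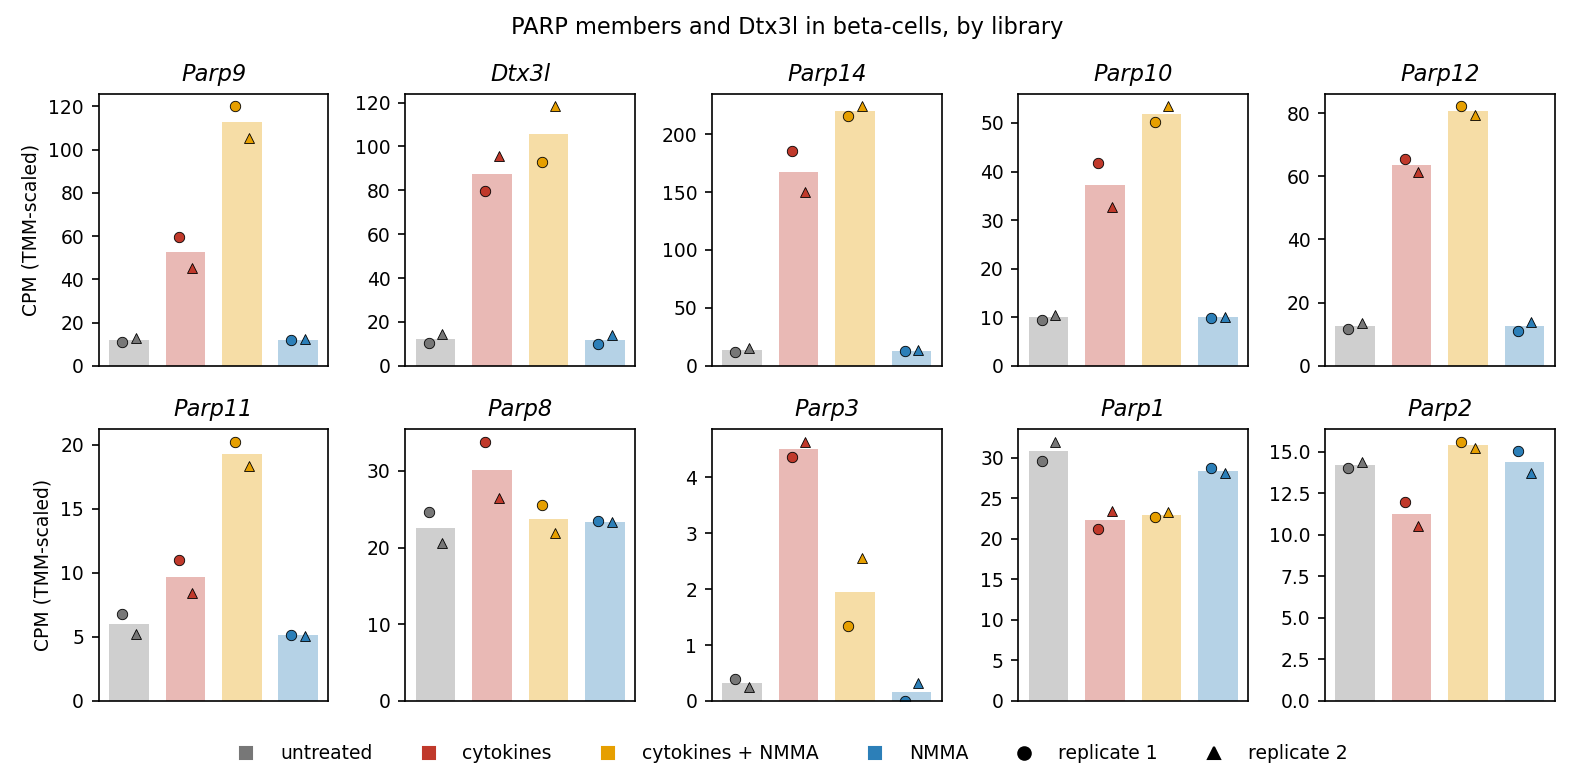
The 10 members in β-cells, 1 panel per gene, as TMM-scaled CPM, with 1 point per library in each condition. Libraries with cytokines lie above those without for the 6 interferon-type members and Parp3, and below them for Parp1.

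Parp14, a mono-ADP-ribosyltransferase, had the largest change of the 6. It was counted at 12.3 and 15.1 CPM untreated, 185 and 149.8 CPM with cytokines, 216 and 224 CPM with cytokines plus NMMA, and 12.7 and 13.8 CPM with NMMA alone. All 4 libraries with cytokines lay far above the 4 without. The log2 change with cytokines was 3.62 ± 0.17 (SE, n = 2 and 2, edgeR adjusted p = 2.63e-06).

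Dtx3l was counted at 10.4 and 14.4 CPM untreated, 79.5 and 95.4 CPM with cytokines, 92.9 and 118 CPM with cytokines plus NMMA, and 9.84 and 14.1 CPM with NMMA alone. Its log2 change with cytokines was 2.83 ± 0.23 (adjusted p = 4.12e-05). Parp9, the partner gene, whose protein has little activity alone, was counted at 11.1 and 12.7 CPM untreated, 59.8 and 45.2 CPM with cytokines, 120.0 and 105 CPM with cytokines plus NMMA, and 11.7 and 12.2 CPM with NMMA alone. The libraries of Parp9 with cytokines thus formed 2 separate levels, those with NMMA being the higher. Its log2 change was 2.15 ± 0.17 with cytokines (adjusted p = 2.42e-05) and 3.25 ± 0.17 with cytokines plus NMMA (adjusted p = 3.81e-06).

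Parp12, a zinc finger member with antiviral activity, was counted at 11.5 and 13.7 CPM untreated, 65.6 and 61.5 CPM with cytokines, 82.1 and 79.4 CPM with cytokines plus NMMA, and 11.2 and 13.8 CPM with NMMA alone. Parp10, a mono-ADP-ribosyltransferase, was counted at 9.45 and 10.49 CPM untreated, 41.8 and 32.7 CPM with cytokines, 50.1 and 53.4 CPM with cytokines plus NMMA, and 9.89 and 10.1 CPM with NMMA alone. For neither gene did libraries with and without cytokines overlap. The log2 changes with cytokines were 2.34 ± 0.15 for Parp12 (adjusted p = 1.24e-05) and 1.91 ± 0.15 for Parp10 (adjusted p = 2.78e-05).

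Parp11, also a mono-ADP-ribosyltransferase, had the smallest change of the 6. It was counted at 6.76 and 5.21 CPM untreated, 11.01 and 8.41 CPM with cytokines, 20.3 and 18.3 CPM with cytokines plus NMMA, and 5.18 and 5.06 CPM with NMMA alone. The libraries with cytokines alone lay only just above the untreated ones. The log2 change was 0.69 ± 0.19 with cytokines (adjusted p = 0.0154) and 1.68 ± 0.19 with cytokines plus NMMA (adjusted p = 0.000312). The call with cytokines was lost without cytokines replicate 1 (adjusted p = 0.122), without untreated replicate 2 (adjusted p = 0.096) and with scaling by total UMIs (adjusted p = 0.0615).

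Parp3, which acts in the repair of double-strand breaks, was scarce in untreated β-cells and rose. It had 14 and 4 UMIs in the untreated libraries, 114 and 69 with cytokines, 25 and 31 with cytokines plus NMMA, and 0 and 5 with NMMA alone. As a share of all UMIs, it was 11.2 times the untreated level with cytokines (exact 95% counting interval 6.92 to 19.4) and 5.28 times with cytokines plus NMMA (3.06 to 9.54), and such intervals cover counting error only. Both comparisons passed (adjusted p = 0.00153 and 0.0234). The second call was lost without untreated replicate 1 or 2 or cytokines plus NMMA replicate 2 (adjusted p = 0.0989 to 0.113).

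Parp1, the main sensor of DNA strand breaks, went the other way. It was counted at 29.6 and 32.0 CPM untreated, 21.2 and 23.5 CPM with cytokines, 22.7 and 23.3 CPM with cytokines plus NMMA, and 28.7 and 28.2 CPM with NMMA alone. Every library with cytokines lay below every library without. The log2 change was -0.47 ± 0.12 with cytokines (adjusted p = 0.0118), -0.42 ± 0.12 with cytokines plus NMMA (adjusted p = 0.0337), and -0.39 ± 0.085 for the 4 libraries with cytokines against the 4 without (adjusted p = 0.00529). The call with cytokines was lost without cytokines replicate 1 or untreated replicate 2 (adjusted p = 0.0717 and 0.0714). That with cytokines plus NMMA was lost with DESeq2 (adjusted p = 0.106), with no low-count filter (adjusted p = 0.0537) and without either untreated library, either library with cytokines plus NMMA or NMMA replicate 2 (adjusted p = 0.0542 to 0.144).

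Parp2, which shares the strand break role of Parp1, was counted at 14.0 and 14.4 CPM untreated, 12.01 and 10.6 CPM with cytokines, 15.6 and 15.3 CPM with cytokines plus NMMA, and 15.1 and 13.8 CPM with NMMA alone. Its log2 change with cytokines was -0.33 ± 0.14 (adjusted p = 0.0801). Parp8, a little studied member, was counted at 24.6 and 20.6 CPM untreated, 33.8 and 26.4 CPM with cytokines, 25.6 and 21.9 CPM with cytokines plus NMMA, and 23.4 and 23.3 CPM with NMMA alone. Its log2 change was 0.41 ± 0.16 (adjusted p = 0.0593). Scaling by total UMIs called Parp2 lower (adjusted p = 0.0118). In the fit with the replicate block both passed, Parp2 at -0.32 (adjusted p = 0.029) and Parp8 at 0.42 (adjusted p = 0.00255), where 62.9% of all genes did.

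With cytokines plus NMMA against untreated, 8 members passed again, 7 higher and Parp1 lower, and 22.6% of all genes were called (40.8% under the block, which called the same members). For the 4 libraries with cytokines against the 4 without, the numbers were the same and 46.7% of all genes were called. Parp8 passed there too with the replicate block (0.22, adjusted p = 0.0208), where 62.1% of all genes did. NMMA alone changed no member by edgeR (0 of 10, and 0% of all genes). In that comparison 0 members had an unadjusted p under 0.05, against 934 genes in all, and DESeq2 called 0 members and 9 genes in all. The replicate block called 455 genes there (3.56%) and no member, the lowest adjusted p being 0.435 for Parp3.

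The comparison of cytokines with cytokines plus NMMA asks which of these changes depended on nitric oxide synthesis. In β-cells, Parp9, Parp11 and Parp10 were lower with cytokines alone, and 19.3% of all genes were called. The log2 difference was -1.10 ± 0.16 (adjusted p = 0.00388) for Parp9, -0.98 ± 0.19 (adjusted p = 0.00948) for Parp11 and -0.47 ± 0.14 (adjusted p = 0.0479) for Parp10. The libraries of the 2 conditions did not overlap for any of these genes. The same held for Parp14, Parp12, Parp2, Parp8 and Parp3, which did not pass. How often it held over all genes was not counted, so nothing is concluded from this separation. Parp11 lost its call without cytokines plus NMMA replicate 1 (adjusted p = 0.0558), where Parp9 was the only member left. Parp10 lost it with DESeq2 (adjusted p = 0.086) and without any library except cytokines replicate 1 (adjusted p = 0.0689 to 0.211).

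The other interferon-type members did not pass. Their log2 differences were -0.39 ± 0.15 (adjusted p = 0.106) for Parp14, -0.35 ± 0.14 (adjusted p = 0.115) for Parp12 and -0.27 ± 0.22 (adjusted p = 0.413) for Dtx3l. Of the rest, Parp2 was at -0.45 ± 0.14 (adjusted p = 0.0514), Parp8 at 0.34 ± 0.16 (adjusted p = 0.167) and Parp1 at -0.044 ± 0.12 (adjusted p = 0.838). Parp3 had the opposite sign to the interferon-type members, at 1.24 ± 0.53 (adjusted p = 0.137), and passed with no low-count filter (adjusted p = 0.00509). When the replicate was a block, 9 of the 10 members passed, where 40.6% of all genes did. All 6 interferon-type members and Parp2 were then lower with cytokines alone, Dtx3l having the highest adjusted p of the 7 (0.031). Parp3 and Parp8 were higher (adjusted p = 0.00592 and 0.0189), and Parp1 did not pass (adjusted p = 0.748). Scaling by total UMIs moved the median of all genes by -0.21 and called 6 members, adding Parp14, Parp12 and Parp2, where 2737 of 12778 genes were called.

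**Figure D2:**
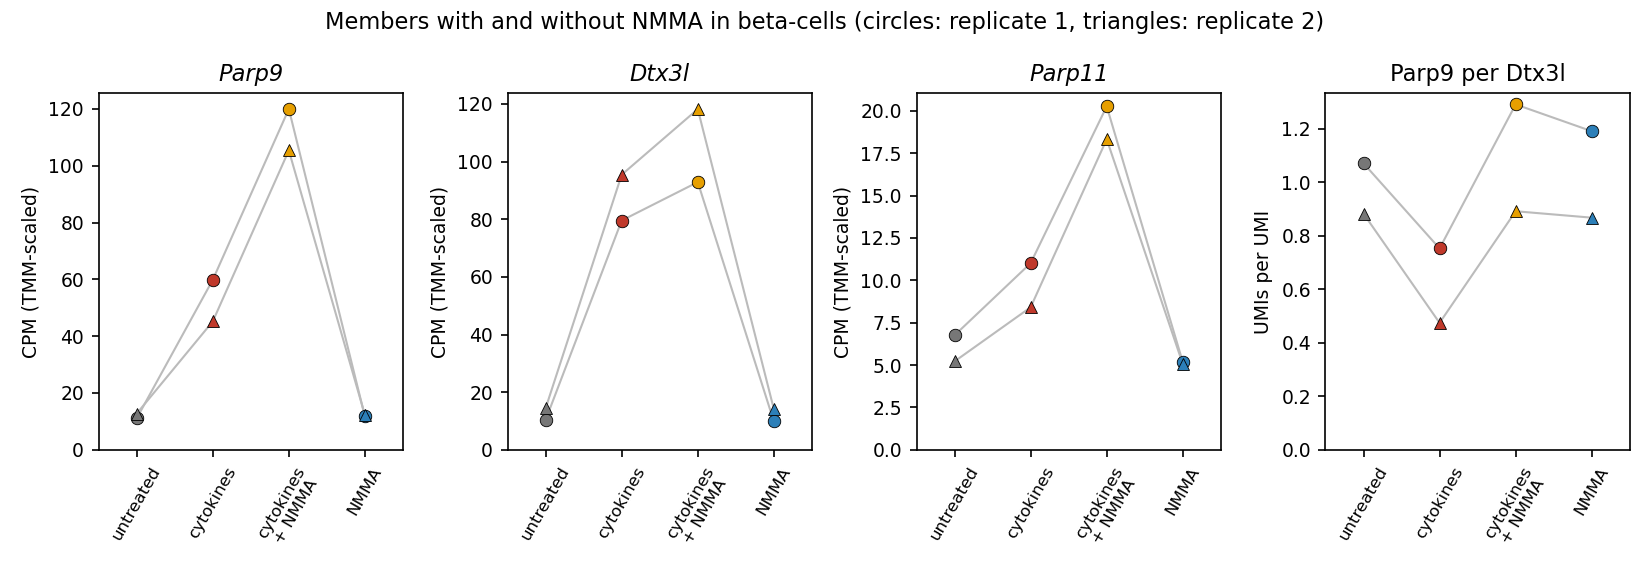
Parp9, Dtx3l and Parp11 in β-cells and the ratio of Parp9 to Dtx3l UMIs, by condition, with 1 point per library and lines joining the libraries of a replicate. Parp9 and Parp11 were highest with cytokines plus NMMA, and the ratio was lowest with cytokines alone in both replicates.

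Parp9 and Dtx3l, which start from the same stretch of DNA, did not keep a fixed ratio in β-cells. The Parp9 UMIs per Dtx3l UMI in replicate 1 were 1.07, 0.752, 1.29, 1.19 for untreated, cytokines, cytokines plus NMMA and NMMA alone. In replicate 2 they were 0.882, 0.474, 0.891, 0.867 in the same order. In both replicates the ratio was lowest with cytokines alone and close to or above the untreated value with the inhibitor. With 2 libraries a condition the ratio was not tested.

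The levels in untreated islets were then compared between cell types, as CPM on a scale common to all classes (mean ± SD, n = 2). Parp3 was at 0.466 ± 0.16 CPM in β-cells and 0.938 ± 0.261 CPM in α-cells, and had 0 UMIs in δ-cells. It was at 15.98 ± 6.10 CPM in macrophages, 8.28 ± 7.08 CPM in endothelial cells and 23.6 ± 3.31 CPM in mesenchymal cells. Against β-cells, all 3 of these classes were higher, with log2 differences of 4.92 ± 0.78 (adjusted p = 1.9e-09) in macrophages, 3.98 ± 0.80 (adjusted p = 2.34e-06) in endothelial cells and 5.73 ± 0.82 (adjusted p = 4.85e-11) in mesenchymal cells. The endothelial call was lost without untreated replicate 1 (adjusted p = 0.0885). Macrophages and endothelial cells did not differ beyond their spread.

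**Figure D3:**
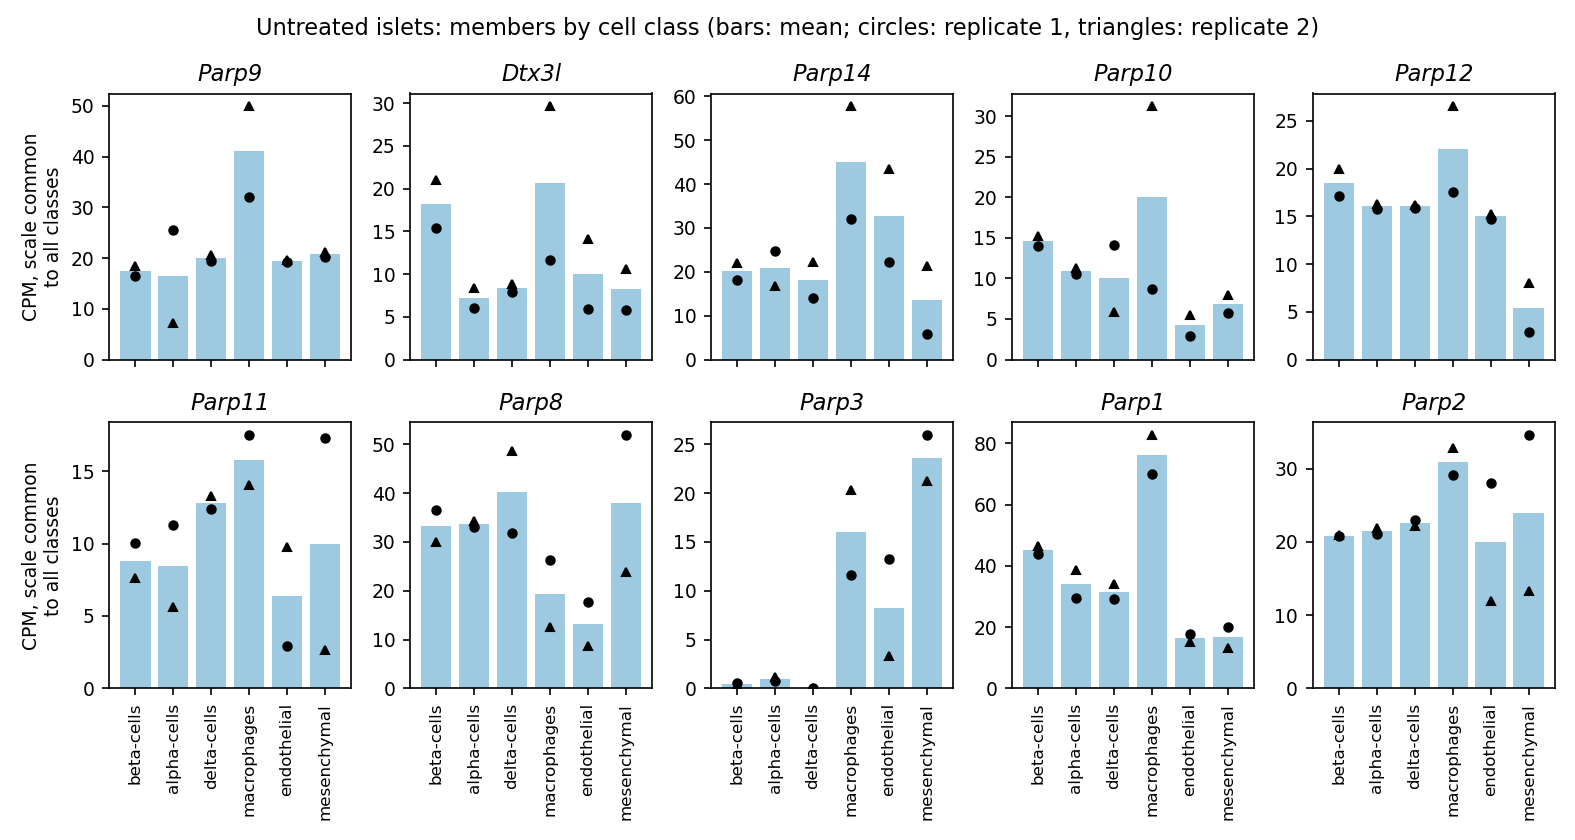
The 10 members in the 6 cell classes of untreated islets, as CPM on a scale common to all classes, with 1 point per library. Parp3 was near 0 in β-, α- and δ-cells, and Parp1 was highest in macrophages.

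Parp1 was highest in macrophages (76.4 ± 9.02 CPM), followed by β-cells (45.3 ± 1.83 CPM), α-cells (34.0 ± 6.60 CPM) and δ-cells (31.6 ± 3.38 CPM), the last 2 of which overlapped. It was lowest in mesenchymal cells (16.7 ± 4.88 CPM) and endothelial cells (16.5 ± 1.75 CPM), which did not differ beyond their spread. Against β-cells the log2 difference was 0.64 ± 0.27 (adjusted p = 0.038) in macrophages, -1.60 ± 0.30 (adjusted p = 3.99e-07) in endothelial cells and -1.31 ± 0.50 (adjusted p = 0.0318) in mesenchymal cells. Scaling by total UMIs, which moved the median of all genes by 1.04 in the endothelial and 0.58 in the mesenchymal comparison, ended both of these calls (adjusted p = 0.137 and 0.34). The macrophage call was lost with DESeq2 and without untreated replicate 2 (adjusted p = 0.148 and 0.235). The mesenchymal call was lost with DESeq2 and without untreated replicate 1 or 2 (adjusted p = 0.0716 to 0.282). Parp2 passed in none of the 5 classes against β-cells, but with scaling by total UMIs it was higher than in β-cells in all but mesenchymal cells (adjusted p = 0.0213 to 0.0411), and its endothelial value turned from -0.25 to 0.80.

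Untreated macrophages also had more Parp9 (41.0 ± 12.6 CPM against 17.5 ± 1.47 CPM in β-cells) and Parp14 (44.9 ± 18.2 CPM against 20.1 ± 2.65 CPM). The log2 differences were 1.13 ± 0.32 (adjusted p = 0.00122) for Parp9 and 1.06 ± 0.30 (adjusted p = 0.00137) for Parp14, and Parp8 was lower (-1.003 ± 0.39, adjusted p = 0.0249). The Parp8 call was lost with DESeq2, with scaling by total UMIs, with no low-count filter and without any of 6 libraries, all but cytokines replicate 1 and NMMA replicate 2 (adjusted p = 0.0777 to 0.631). With scaling by total UMIs Parp2 and Parp11 were called higher (adjusted p = 0.0271 and 0.0376). The 5 of 10 members called without it stood against 47.3% of all genes. Without untreated replicate 2, Parp3 alone was left (adjusted p = 0.181 for Parp9 and 0.25 for Parp14).

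In untreated endothelial cells 6 of 10 members differed from β-cells, near the 54.9% of all genes. Parp3 and Parp14 were higher (Parp14 0.59 ± 0.26, adjusted p = 0.0452), and Parp1, Parp8, Parp10 and Dtx3l were lower. The log2 differences of the last 3 were -1.502 ± 0.33 (adjusted p = 1.79e-05) for Parp8, -1.88 ± 0.48 (adjusted p = 0.000249) for Parp10 and -0.95 ± 0.36 (adjusted p = 0.0163) for Dtx3l. With scaling by total UMIs the 4 lower members were not called and the value for Dtx3l turned to 0.083. Under that scaling Parp9 moved from 0.022 to 1.07 (adjusted p = 0.00255) and Parp2 from -0.25 to 0.80 (adjusted p = 0.0411), and both were called higher. Without untreated replicate 2 the value for Parp14 was 0.14 (adjusted p = 0.838), and it did not pass with DESeq2 or with no low-count filter (adjusted p = 0.108 and 0.0726). Without untreated replicate 1 Dtx3l was not called (adjusted p = 0.244).

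Dtx3l was lower in the other endocrine cells, at 7.22 ± 1.69 CPM in α-cells and 8.41 ± 0.638 CPM in δ-cells against 18.2 ± 3.95 CPM in β-cells. The log2 difference was -1.28 ± 0.29 (adjusted p = 0.000102) in α-cells and -1.02 ± 0.34 (adjusted p = 0.016) in δ-cells, and it was the only member called in either, where 29.4% and 21.6% of all genes were. The δ-cell call was lost with DESeq2 (adjusted p = 0.172), with scaling by total UMIs (adjusted p = 0.46) and without untreated replicate 1 or 2 (adjusted p = 0.146 and 0.199). Without untreated replicate 1, Parp9 was also lower in α-cells (-1.29, adjusted p = 0.0136). Scaling by total UMIs also called Parp8, Parp14 and Parp2 higher in α-cells (adjusted p = 0.00881 to 0.0248) and Parp8, Parp9, Parp2 and Parp11 higher in δ-cells (adjusted p = 0.0013 to 0.0213). That scaling called 6101 of 13475 genes in α-cells and 5159 of 13613 in δ-cells. In mesenchymal cells Parp3 and Parp1 were the 2 of 10 members called, against 29.4% of all genes.

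The cytokine response of the interferon-type members was seen in each of the 6 classes. With libraries given cytokines against those given none, Parp9, Dtx3l, Parp14, Parp10 and Parp12 rose in all 6. Parp2, tested in 5 classes, and Parp8, tested in 6, did not pass in any. In sums over a class, fewer expressing cells and less RNA per cell cannot be told apart.

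Cells of 1 class lay mostly in different clusters with and without cytokines. Of the macrophages, a cluster led by C1qb, H2-Ab1 and H2-Aa held 104 cells with cytokines and 2 without, and a cluster led by Lyz2, Apoe and Pf4 held 37 and 181. Of the endothelial cells, a cluster led by Timp3, Ly6c1 and Ly6a held 84 and 0, and a cluster led by Esm1, Fabp4 and Emcn held 1 and 197. Clusters led by Il4i1, Cfb or Lcn2 held 2436 β-cells with cytokines and 16 without, and those led by Ppp1r1a, Glp1r or heat shock genes held 367 and 3530. Most of the 367 lay in the heat shock clusters, which were mixed. In replicate 2, that led by Hspa1b held 119 cells untreated, 131 with cytokines, 84 with cytokines plus NMMA and 154 with NMMA alone. In replicate 1, that led by Hspa1a held 105, 69, 57 and 128 in the same order. Of the α-cells, 204 with and 23 without cytokines lay in clusters with Hamp among the leading genes, and 1 and 311 in clusters led by Gcg and Pappa2. A δ-cell cluster led by Csf3 and Sst held 104 and 1, and those led by Sst with Arg1 or Vip held 3 and 218. Mesenchymal clusters led by Cxcl3 or Cxcl5 held 59 and 0, and those led by Mgp or collagen genes held 9 and 130. The part of this split in the differences between conditions was not tested.

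**Figure D4:**
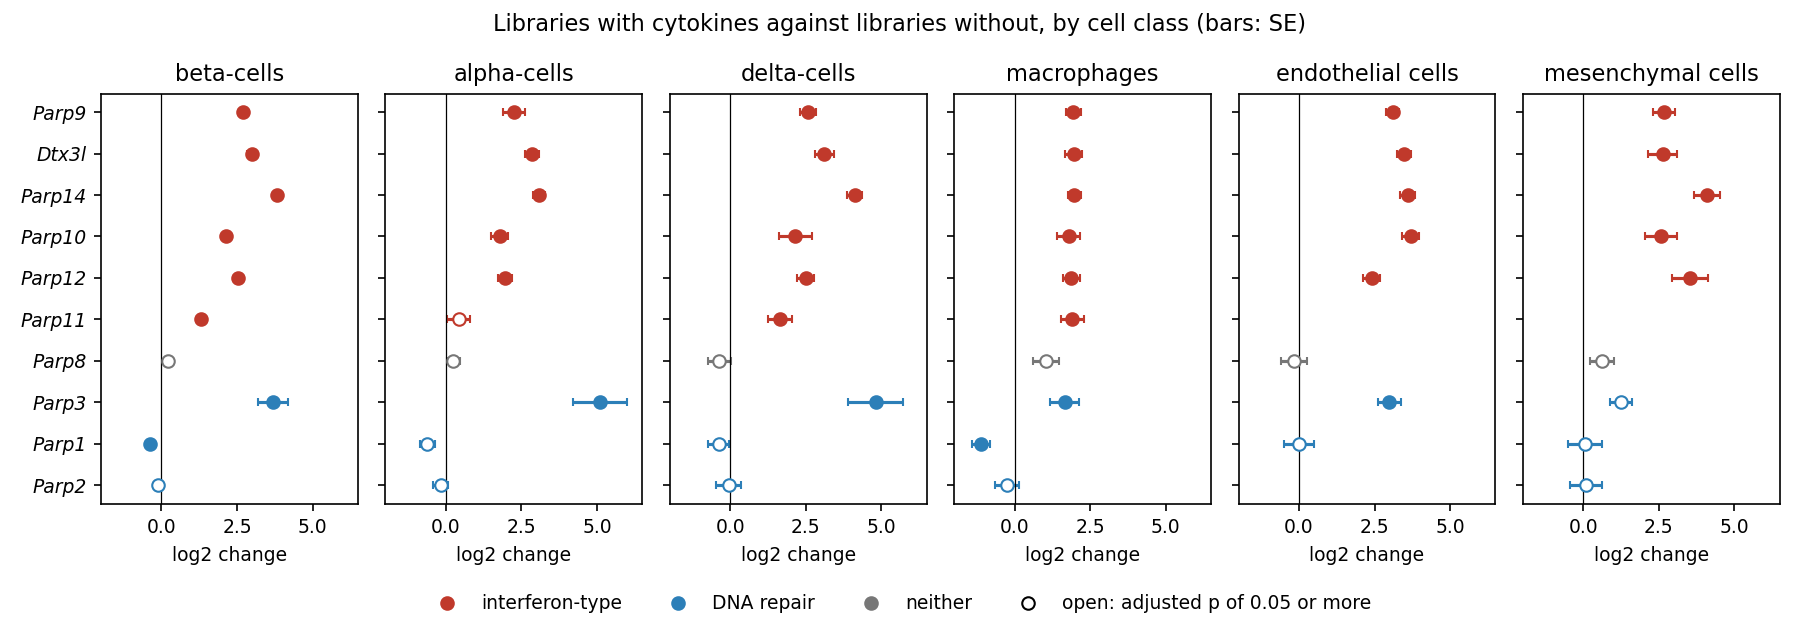
Log2 change of the members between libraries with and without cytokines in each of the 6 cell classes, with bars for the SE and filled points for those that passed. Parp9, Dtx3l, Parp14, Parp10 and Parp12 lie above 0 and passed in all 6 classes.

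In α-cells, which secrete glucagon, Parp14 was counted at 23.5 and 16.3 CPM untreated, 133 and 136 CPM with cytokines, 180.5 CPM with cytokines plus NMMA, and 21.4 and 13.4 CPM with NMMA alone, where cytokines plus NMMA is 1 library. Libraries with and without cytokines did not overlap. With cytokines against untreated, Dtx3l (3.23 ± 0.31, adjusted p = 1.77e-07), Parp14 (2.77 ± 0.26, adjusted p = 1.23e-07), Parp10 (1.78 ± 0.36, adjusted p = 0.000852) and Parp12 (1.53 ± 0.31, adjusted p = 0.001) rose, and 25.7% of all genes were called. Parp3 rose from 1 and 2 UMIs untreated to 4 and 16 with cytokines (adjusted p = 0.00527), and this call was lost without cytokines replicate 2 (adjusted p = 0.236).

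Parp9 in α-cells stood at 24.2 and 7.07 CPM untreated and 53.4 and 33.0 CPM with cytokines (1.504 ± 0.51, adjusted p = 0.0603). Parp1 stood at 27.7 and 37.5 CPM and 12.2 and 21.6 CPM (-0.91 ± 0.34, adjusted p = 0.0506). Without untreated replicate 1 the value for Parp9 was 2.56 (adjusted p = 0.000348), and at Leiden resolution 1.5 it was 1.85 (adjusted p = 0.0106). It also passed with no low-count filter and without cytokines plus NMMA replicate 1 (adjusted p = 7.76e-05 and 0.0444). Under a replicate block Parp9 was higher (adjusted p = 0.000133) and Parp1 lower (adjusted p = 0.0215), where 32.7% of all genes passed. For libraries with cytokines against those without, 6 members passed, Parp9 among them (2.26 ± 0.36, adjusted p = 0.00248), and 19.6% of all genes. Parp11 did not pass (0.43 ± 0.38, adjusted p = 0.474).

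The β-cell markers in α-cells stood at 6.69% to 15.8% of their β-cell level with cytokines and at 1.88% to 2.67% without. At those percentages, the Parp14 of the β-cells in the same library would amount to 7.79% to 22.5% of the α-cell Parp14 with cytokines. In macrophages the marker percentage was 0.574% to 1.66% with cytokines and 3.91% to 13% without, and in endothelial cells 0.558% to 0.825% and 0.903% to 1.07%. It was 3.07% to 14% with and 6.47% to 13.7% without in δ-cells, and 0.798% to 1.2% with and 1.39% to 18.3% without in mesenchymal cells. By the same reckoning as for α-cells, β-cell Parp14 would amount to 1.42% to 9.93% with and 4.38% to 12.1% without in δ-cells, and 0.608% to 1.53% with and 0.874% to 33.2% without in mesenchymal cells. The part of this RNA in the results was not tested.

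In α-cells with cytokines against cytokines plus NMMA, edgeR called 0 of 10 members and 8.92% of all genes, 2 members had an unadjusted p under 0.05, and DESeq2 called 0 members. Those with the low p were Parp9 (-1.41 ± 0.47, adjusted p = 0.107) and Parp11 (-1.57 ± 0.56, adjusted p = 0.0866). Under a replicate block Parp9 was lower with cytokines alone (-1.06, adjusted p = 0.0117), where 14.2% of all genes passed. Parp9 also passed without untreated replicate 1 or 2 (adjusted p = 0.00747 and 0.00775), and Parp11 without cytokines replicate 1 (adjusted p = 0.0174).

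In δ-cells, which secrete somatostatin, Parp14 was counted at 16.5 and 26.4 CPM untreated, 269 CPM with cytokines, 307 and 373 CPM with cytokines plus NMMA, and 9.26 and 18.3 CPM with NMMA alone, where cytokines is 1 library. With cytokines against untreated, Parp14 (3.69 ± 0.36, adjusted p = 6.25e-07), Dtx3l (3.20 ± 0.51, adjusted p = 0.000334), Parp12 (2.35 ± 0.44, adjusted p = 0.00159) and Parp9 (1.86 ± 0.43, adjusted p = 0.00977) rose, and 6.32% of all genes were called. Parp3 passed as well (adjusted p = 0.0199). It had 0 and 0 UMIs untreated, 3 with cytokines, 28 and 24 with cytokines plus NMMA and 2 and 3 with NMMA alone. For a ratio, the untreated group was set to a floor of 3 UMIs. As a share of all UMIs, Parp3 with cytokines plus NMMA was 16.8 times that floor (exact counting interval 5.43 to 83.9). Without untreated replicate 1, Parp9 and Parp3 were lost (adjusted p = 0.0622 and 0.0949), and Parp3 also without either library with cytokines plus NMMA (adjusted p = 0.0515 and 0.0509). DESeq2 left 3 members, without Parp9 and Parp3.

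For δ-cell libraries with cytokines against those without, all 6 interferon-type members and Parp3 rose, where 10.9% of all genes were called. Parp11 stood at 32.6 to 46.6 CPM with cytokines and 8.53 to 15.8 CPM without (1.65 ± 0.41, adjusted p = 0.0102). Parp10 stood at 22.9 to 78.1 CPM with cytokines and 4.88 to 16.5 CPM without (2.16 ± 0.55, adjusted p = 0.0129). Neither pair of ranges overlapped. DESeq2 did not call Parp11 (adjusted p = 0.124). With cytokines against cytokines plus NMMA, edgeR called 0 members and 3.12% of all genes, 2 members had an unadjusted p under 0.05, and DESeq2 called 0 members. Parp9 was at 85.8 CPM with cytokines and 192 and 174 CPM with the inhibitor (-1.09 ± 0.36, adjusted p = 0.124). The library with cytokines that was left out had 6 δ-cells with 23 Parp9 UMIs among 97035, or 237 CPM without further scaling, above the 195 and 166 of both libraries with the inhibitor and the 92.8 of the other library with cytokines. With that library in the fit, the log2 difference was -0.43 ± 0.33 (adjusted p = 0.66).

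In macrophages, the resident immune cells of the islet, Parp14 was counted at 30.5 and 52.4 CPM untreated, 178 and 171 CPM with cytokines, 194 and 190.0 CPM with cytokines plus NMMA, and 38.1 and 60.8 CPM with NMMA alone. Libraries with and without cytokines did not overlap. With cytokines against untreated, Parp14 (2.005 ± 0.31, adjusted p = 0.000885), Dtx3l (2.02 ± 0.39, adjusted p = 0.00676), Parp12 (1.91 ± 0.37, adjusted p = 0.00639), Parp9 (1.59 ± 0.33, adjusted p = 0.00939) and Parp10 (1.96 ± 0.51, adjusted p = 0.0493) rose, and 4.62% of all genes were called. DESeq2 called Parp14 and Dtx3l alone. Parp10 was also lost with scaling by total UMIs, with doublets removed and without any of 5 libraries, all but untreated replicate 2 and both with NMMA alone (adjusted p = 0.0525 to 0.18). Without untreated replicate 1, 2 members were left, and without cytokines replicate 1, 3 were.

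For macrophage libraries with cytokines against those without, all 6 interferon-type members and Parp3 rose and Parp1 fell, where 12.1% of all genes were called. Parp11 stood at 34.8 to 64.8 CPM with cytokines and 2.93 to 21.3 CPM without (1.91 ± 0.38, adjusted p = 0.00311). Parp1 was counted at 66.5 and 75.1 CPM untreated, 29.3 and 37.7 CPM with cytokines, 14.7 and 36.4 CPM with cytokines plus NMMA, and 73.3 and 42.5 CPM with NMMA alone. Its libraries with cytokines lay below those without (-1.10 ± 0.29, adjusted p = 0.023). Parp3 stood at 20.6 to 72.8 CPM with cytokines and 3.04 to 18.4 CPM without (1.66 ± 0.48, adjusted p = 0.0355). DESeq2 called neither Parp1 nor Parp3 (adjusted p = 0.18 and 0.119). Parp1 was also lost without replicate 1 of cytokines, cytokines plus NMMA or NMMA, or untreated replicate 2 (adjusted p = 0.0788 to 0.133), and Parp3 without any of 6 libraries, all but replicate 1 of cytokines plus NMMA and of NMMA (adjusted p = 0.0661 to 0.293). With cytokines against cytokines plus NMMA, edgeR called 0 members and 0.116% of all genes, 0 members had an unadjusted p under 0.05, and DESeq2 called 0 members.

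In endothelial cells, Parp2 and Parp11 did not pass the low-count filter and 8 members were tested. Parp14 was counted at 28.8 and 56.3 CPM untreated, 481 and 641 CPM with cytokines, 482 and 603 CPM with cytokines plus NMMA, and 30.2 and 66.5 CPM with NMMA alone. Dtx3l was counted at 7.68 and 18.3 CPM untreated, 238 and 259 CPM with cytokines, 189.7 and 225 CPM with cytokines plus NMMA, and 27.1 and 32.4 CPM with NMMA alone. Parp10 was counted at 3.84 and 7.04 CPM untreated, 99.2 and 132 CPM with cytokines, 133 and 93.3 CPM with cytokines plus NMMA, and 11.2 and 14.4 CPM with NMMA alone. For all 3, every library with cytokines lay above every library without. With cytokines against untreated the log2 changes were 4.32 ± 0.43 (adjusted p = 2.08e-06) for Parp10, 4.17 ± 0.34 (adjusted p = 2.26e-07) for Dtx3l, 3.69 ± 0.37 (adjusted p = 1.33e-05) for Parp14, 2.99 ± 0.30 (adjusted p = 2.59e-06) for Parp9 and 2.71 ± 0.42 (adjusted p = 0.000447) for Parp12. Parp3 rose from 9 and 3 UMIs to 11 and 24 with cytokines, 5.72 times as a share of all UMIs (2.90 to 12.1, adjusted p = 0.0059). This call was lost without untreated replicate 2 or cytokines replicate 2 (adjusted p = 0.0695 and 0.0991).

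These 6 endothelial calls stood against 6.38% of all genes, and 6 members rose for libraries with cytokines against those without, where 12.6% of all genes were called. With cytokines against cytokines plus NMMA, edgeR called 0 members and 0% of all genes, 0 members had an unadjusted p under 0.05 against 365 genes in all, and DESeq2 called 0 members. Parp9 was at 223 and 184 CPM with cytokines and 277 and 216 CPM with the inhibitor (-0.27 ± 0.26, adjusted p = 0.999).

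In mesenchymal cells, Parp11 did not pass the low-count filter and 9 members were tested. Parp14 was counted at 6.68 and 25.0 CPM untreated, 202 CPM with cytokines, 255 and 155 CPM with cytokines plus NMMA, and 5.08 and 9.60 CPM with NMMA alone, where cytokines is 1 library. It was the only member called with cytokines against untreated (3.62 ± 0.63, adjusted p = 0.00984), where 1.27% of all genes were, and it was lost without untreated replicate 1 (adjusted p = 0.151). Parp9 passed too in the fit with a replicate block (2.40, adjusted p = 0.0335), where 2% of all genes did. Without NMMA replicate 1 or 2, Parp9 and Parp12 passed as well.

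For mesenchymal libraries with cytokines against those without, Parp14 (4.09 ± 0.44, adjusted p = 0.000118), Parp12 (3.53 ± 0.60, adjusted p = 0.00445), Parp9 (2.66 ± 0.36, adjusted p = 0.000782), Dtx3l (2.63 ± 0.47, adjusted p = 0.00684) and Parp10 (2.57 ± 0.52, adjusted p = 0.0143) rose, where 3.14% of all genes were called. DESeq2 did not call Dtx3l and Parp10 (adjusted p = 0.0501 and 0.0705), and Parp10 was lost without untreated replicate 1 or 2 or cytokines plus NMMA replicate 1 (adjusted p = 0.0509 to 0.0866). Parp3, present before exposure, stood at 58.9 to 84.9 CPM with cytokines and 25.0 to 32.0 CPM without and did not pass (1.25 ± 0.36, adjusted p = 0.11). With cytokines against cytokines plus NMMA, edgeR called 0 members and 0.0167% of all genes, 0 members had an unadjusted p under 0.05, and DESeq2 called 0 members.

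Parp1 did not pass between libraries with and without cytokines in the 4 classes other than β-cells and macrophages. Its log2 change was -0.61 ± 0.24 in α-cells (adjusted p = 0.0798), -0.38 ± 0.36 in δ-cells (adjusted p = 0.563), 0.01 ± 0.49 in endothelial cells (adjusted p = 0.998) and 0.053 ± 0.57 in mesenchymal cells (adjusted p = 0.998). In α-cells it passed with scaling by total UMIs (adjusted p = 0.00668) and without cytokines replicate 2 (adjusted p = 0.0322). Parp2 lay between -0.26 and 0.093 over its 5 classes and Parp8 between -0.35 and 1.04 over 6.

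The size of the cytokine response was compared between β-cells and each other class in fits with the library as a block. Parp14 responded less in macrophages than in β-cells, with a log2 difference of -1.64 ± 0.27 (adjusted p = 2.17e-07), and was the only member called, where 6.42% of all genes were. This held without each library in turn. The macrophages and endothelial cells compared lay in the separate clusters described above. On the scale common to all classes, Parp14 in macrophages averaged 44.9 CPM untreated and 183.7 CPM with cytokines. In β-cells it averaged 20.1 and 238.5 CPM. The part of the higher starting level in the smaller response was not tested. Parp14 also responded less in α-cells (-0.67 ± 0.21, adjusted p = 0.036), again as the only member, where 4.4% of all genes were called. The α-cell call was lost with DESeq2 (adjusted p = 0.27), with no low-count filter (adjusted p = 0.0566) and without replicate 1 of untreated, cytokines or NMMA (adjusted p = 0.131 to 0.444). In macrophages Parp3 and Dtx3l responded less as well without untreated replicate 1 (adjusted p = 0.0333 and 0.0354), and Parp3 without NMMA replicate 2 (adjusted p = 0.00577).

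Parp10 responded more in endothelial cells than in β-cells (1.72 ± 0.36, adjusted p = 6.26e-05), the only member called where 7.43% of all genes were, and this held without each library in turn. Endothelial Parp10 averaged 5.44 CPM untreated and 12.8 CPM with NMMA alone, in sums of 498571 to 685741 UMIs. Its level without cytokines thus rests on few UMIs. Parp2 was called there too without cytokines replicate 1 or cytokines plus NMMA replicate 2 (adjusted p = 0.0401 and 0.0318). In δ-cells and mesenchymal cells edgeR called 0 members, where 3.6% and 1.66% of all genes were called. There 0 members in δ-cells and 1 in mesenchymal cells had an unadjusted p under 0.05, and DESeq2 called 0 in either.

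The contrast between the interferon-type members and Parp1 with Parp2 was drawn within each library as a ratio of summed UMIs. In β-cells the ratio was 11.6 to 15.5 with cytokines and 1.38 to 1.65 without. Sums of fewer than 10 cells are left out. It was 8.42 to 13.6 and 1.08 to 1.87 in α-cells, 11.8 to 22.3 and 1.55 to 1.83 in δ-cells, 9.65 to 16.1 and 1.21 to 3 in macrophages, and 8 to 17.6 and 0.82 to 2.70 in mesenchymal cells. In endothelial cells it was 34.7 to 59.2 and 1.48 to 4.52, and the values with cytokines rest on 4 to 11 UMIs of Parp1 and Parp2 in a library. In none of the 6 classes did libraries with and without cytokines overlap.

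**Figure D5:**
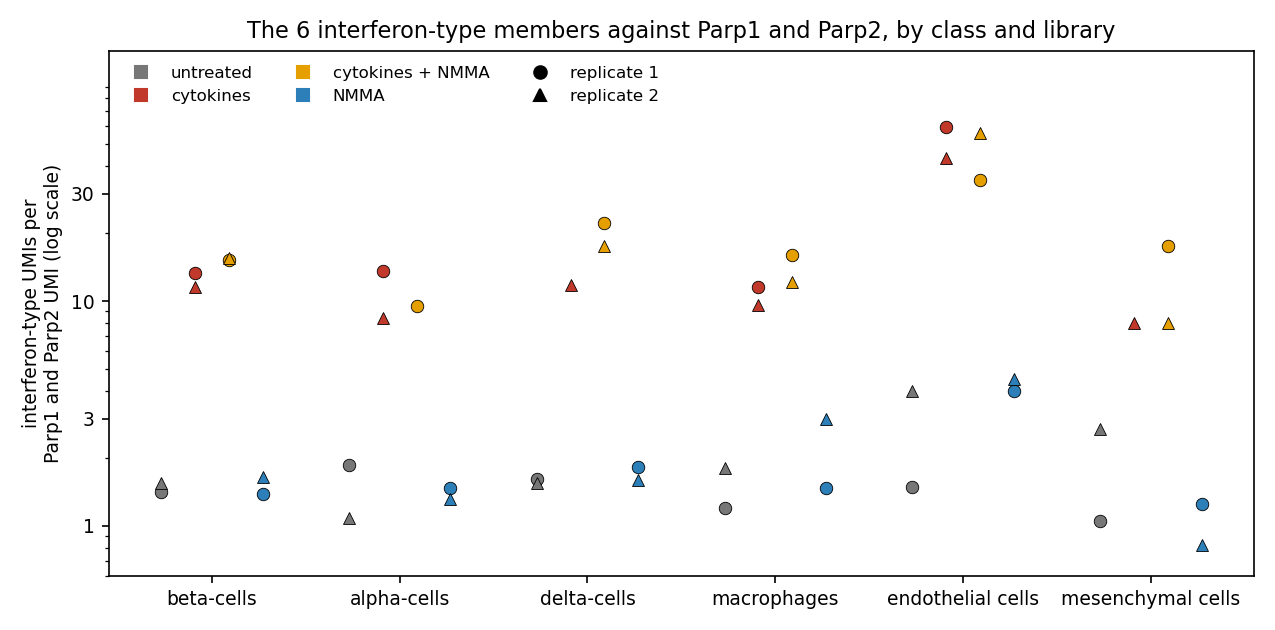
UMIs of the 6 interferon-type members per UMI of Parp1 and Parp2 on a log axis, by cell class and condition, with 1 point per library. Libraries with cytokines lie at 8 or above, and those without at 4.52 or below.

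Other genes of ADP-ribose and NAD metabolism moved less uniformly in β-cells with cytokines. Of 7 other PARP family genes, 3 rose and 1 fell, or 4 of 7 beside the 46.1% of all genes called, with a median log2 change of 0.20 against 0.0015 over all genes. Tiparp, a mono-ADP-ribosyltransferase induced through the aryl hydrocarbon receptor, rose (1.39 ± 0.25, adjusted p = 0.00224), as did Zc3hav1, which encodes the antiviral protein ZAP (1.16 ± 0.11, adjusted p = 8.73e-05). Parp16, of the endoplasmic reticulum, fell (-1.52 ± 0.21, adjusted p = 0.000485) and was also lower with cytokines than with cytokines plus NMMA (-0.83 ± 0.21, adjusted p = 0.027).

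Of 9 genes for removing or reading ADP-ribose, 2 rose and 0 fell, beside the 46.1% of all genes, with a median of -0.015. Hpf1, the cofactor that directs PARP1 and PARP2 to serine, was at 31.5 and 39.4 CPM untreated, 69.8 and 70.9 CPM with cytokines, 44.5 and 47.4 CPM with cytokines plus NMMA and 36.4 and 35.8 CPM with NMMA alone. It rose with cytokines (0.99 ± 0.13, adjusted p = 0.000456) and was higher with cytokines than with cytokines plus NMMA (0.61 ± 0.13, adjusted p = 0.0151). Rnf146, a ubiquitin ligase that reads ADP-ribose chains, did likewise (0.62 ± 0.16, adjusted p = 0.013 and 0.60 ± 0.16, adjusted p = 0.034). Both genes thus differed between these conditions in the direction opposite to Parp9 and Parp11.

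Of 9 genes of single-strand break and base excision repair, 2 rose and 0 fell, a smaller share than the 46.1% of all genes, with a median of -0.051. Apex1, the endonuclease that cuts at lost bases, was at 10.3 and 11.2 CPM untreated, 23.0 and 19.8 CPM with cytokines, 9.28 and 8.33 CPM with cytokines plus NMMA and 7.79 and 8.31 CPM with NMMA alone. It rose with cytokines (1.003 ± 0.15, adjusted p = 0.00073) and was higher than with cytokines plus NMMA (1.28 ± 0.15, adjusted p = 0.00221). Polb, a repair polymerase, rose (0.44 ± 0.16, adjusted p = 0.0486).

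Of 7 genes of NAD supply, 1 rose and 1 fell, where 46.1% of all genes were called, with a median of -0.34. Nampt, the rate-limiting enzyme of NAD salvage, was at 34.9 and 41.9 CPM untreated, 167 and 139.7 CPM with cytokines, 155 and 151 CPM with cytokines plus NMMA and 41.8 and 48.3 CPM with NMMA alone. It rose with cytokines (1.998 ± 0.16, adjusted p = 2.61e-05) and did not pass for the inhibitor (0.0031 ± 0.15, adjusted p = 0.991). Naprt, which makes NAD from nicotinic acid, fell (-0.93 ± 0.25, adjusted p = 0.0136). It was also lower with cytokines than with cytokines plus NMMA (-0.84 ± 0.25, adjusted p = 0.0474). With cytokines plus NMMA against untreated it did not pass (-0.092 ± 0.24, adjusted p = 0.842).

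Over the 45 sums of a class and a library, the genes whose log2 CPM followed Parp14 most closely were Tap1 (Pearson r = 0.956), Dtx3l (0.951), Gbp5 (0.95), Gbp4 (0.946) and Igtp (0.944), among 10689 genes. For Parp1 they were Lamtor2 (0.77), Slc7a8 (0.764), Slc43a2 (0.762), Abhd15 (0.758) and Ndufb8 (0.749). These values are descriptions, since classes of a library share its depth and treatment.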

How the data were processed

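Per the labels and the study's methods, islets were dispersed, captured on a 10x Genomics Chromium controller with a 3′ kit (whose version differs between labels and methods) and aligned to mm10 with Cell Ranger. The authors deposited raw UMI counts per gene and barcode for 8 libraries. Per the file headers, the version was 3.0.0 for replicate 1 and 6.0.0 for replicate 2, with 31053 and 32285 genes listed, so the 30406 gene IDs in both lists were used. The libraries held 26549922 to 50731370 UMIs. Whether counting used strand is not given in the sources used here.

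Barcodes with at least 200 genes, up to 5500 (replicate 1) or 6500 (replicate 2) genes, and at most 10% mitochondrial UMIs were kept, following the limits in the study's methods. They were clustered with scanpy 1.11.5 and Leiden at resolution 1, and clusters were named from fixed marker lists. Doublets stayed in the main sums, and the 197 barcodes with the highest doublet scores were removed as an alternative. UMIs were summed per class and library where a library had at least 10 cells of the class. Sums were tested with the robust quasi-likelihood test of edgeR 4.0.16, after its filterByExpr filter and TMM scaling, with Benjamini-Hochberg adjustment over all genes tested and a threshold of 0.05. Main fits within a class had the condition only, without the replicate. Fits of 2 classes had each library as a block. CPM values are TMM-scaled within a class, except where a scale common to all classes or no further scaling is named. Those of marker lists have no TMM scaling. The fits were also run on simulated counts with the same spread for all genes and no difference between replicates. Those runs cannot show how leaving out the pairing affects the main fits. All 10 members were named in every comparison, and from 4 further lists up to 3 called genes with the largest change in β-cells. For Parp14 and Parp1, the 5 genes of highest Pearson correlation were named. The members, lists and tests were chosen with earlier results of these data known.

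The 4 libraries of a replicate came from 1 pool of islets, so the replicate numbers pair the samples. Deviations from the condition means in β-cells correlated at 0.656 to 0.75 between the libraries of a replicate, over 12778 genes. The alternatives were DESeq2 1.42.0, scaling by total UMIs, no low-count filter, a replicate block, each library left out, doublets removed, Leiden resolution 1.5 and sums from at least 1 cell.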

Additional observations from a re-analysis of the deposited data

Results flagged for a closer look

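Parp14 and Parp10 were singled out because their cytokine responses differed between cell types in a test of the difference itself. The Parp14 response was smaller in macrophages than in β-cells by a log2 difference of -1.64, and smaller in α-cells by -0.67. Untreated macrophages had the higher Parp14 level, 44.9 CPM against 20.1 CPM in β-cells on the scale common to all classes. The Parp10 response was larger in endothelial cells than in β-cells by 1.72, and its endothelial level without cytokines rests on few UMIs. The macrophage and endothelial differences passed without each library in turn, and the α-cell difference did not.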

How the results depend on the processing

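Counts are of members called. With the replicate as a block, 9 passed in place of 3 for cytokines against cytokines plus NMMA in β-cells, 1 in place of 0 in α-cells, and 2 in place of 1 for cytokines against untreated in mesenchymal cells. Of all genes, 40.6%, 14.2% and 2% were called there under the block. The block changed the count by 1.5 times or less in the other comparisons within a class. With scaling by total UMIs, 6 passed in β-cells and 5 in α-cells for cytokines against cytokines plus NMMA, 4 in place of 1 for untreated α-cells and 4 for untreated δ-cells against β-cells, 1 in place of 2 for untreated mesenchymal cells, and 2 in place of 1 for the cytokine effect in α-cells and in endothelial cells against β-cells. That scaling called 2737 of 12778 genes in β-cells and 1728 of 9956 in α-cells for cytokines against cytokines plus NMMA. Against β-cells, untreated, it called 6101 of 13475 in α-cells, 5159 of 13613 in δ-cells and 4385 of 13526 in mesenchymal cells. For the cytokine effect it called 1038 of 13475 in α-cells and 1390 of 13264 in endothelial cells. DESeq2 called 3 in place of 5 for cytokines against untreated in δ-cells and 2 in place of 5 in macrophages, 3 in place of 5 for mesenchymal libraries with and without cytokines, and 0 in place of 1 for the cytokine effect in α-cells and for untreated δ-cells. It called 3 in place of 5 for untreated macrophages and 1 in place of 2 for untreated mesenchymal cells against β-cells. Over all genes, DESeq2 called 256 of 9377 in δ-cells and 150 of 5156 in macrophages for cytokines against untreated. It called 162 of 5987 for the mesenchymal libraries and 160 of 13475 for the cytokine effect in α-cells. Against β-cells, untreated, it called 1463 of 13613 in δ-cells, 4264 of 12812 in macrophages and 2916 of 13526 in mesenchymal cells. With no low-count filter, 2 passed in α-cells and 1 in δ-cells for the inhibitor comparison, 3 in place of 1 for cytokines against untreated in mesenchymal cells, and 0 for the cytokine effect in α-cells. With sums from at least 1 cell, 3 passed for cytokines against untreated in mesenchymal cells and 1 in place of 0 for their cytokine effect against β-cells. Removing doublets and Leiden resolution 1.5 moved no count by over 1.5 times. Counts over all genes are given here for the block, the scaling and DESeq2 only. Under the other settings, and below with a library left out, the member counts have no share of all genes beside them. The causes were not tested.

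Leaving out each library in turn gave 1 to 3 for the inhibitor comparison in β-cells and 0 to 1 in α-cells. For cytokines against untreated it gave 3 to 5 in δ-cells, 2 to 5 in macrophages and 0 to 3 in mesenchymal cells. Against β-cells, untreated, it gave 1 to 2 in α-cells, 0 to 1 in δ-cells, 1 to 5 in macrophages and 1 to 3 in mesenchymal cells, and for the cytokine effect 0 to 1 in α-cells, 1 to 3 in macrophages and 1 to 2 in endothelial cells. Where a group was left with 1 library, it was assumed to vary like the rest. No value could be had for the 8 comparisons in δ- and mesenchymal cells that need the lone library with cytokines, or for the 3 in α-cells that need the lone library with the inhibitor, when it was left out, nor for those 3 at resolution 1.5. Classes of few cells, and the few UMIs of Parp3, limit the precision.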
